A study of Mus musculus with 6 samples.

Results

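Goblet cell products and the transcription factors of secretory cell fate were examined in small intestinal organoids treated with MMK-1. The set consisted of 10 genes taken by their symbols from the 21397 genes of the expression table, 7 of them encoding goblet cell products (Muc2, Tff3, Fcgbp, Clca1, Zg16, Agr2 and Spink4) and 3 encoding transcription factors (Spdef, Atoh1 and Gfi1). Of these, 9 were among the 10551 genes with a mean of at least 1 FPKM (fragments scaled by gene length and library size) and could be tested together with all other genes. Gfi1 lay under this limit and is described by its values.

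Goblet cells are mucus-secreting cells of the intestinal epithelium. They arise from crypt progenitors that escape Notch signaling and switch on ATOH1, after which GFI1 and SPDEF direct maturation toward the goblet fate and away from enteroendocrine and absorptive fates. Their secreted mucin forms a gel that holds bacteria away from the epithelium, and the same granules carry peptides and lectins that repair, shape or defend this layer.

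The organoids came from small intestinal crypts of Fpr2f/f mice, in which Fpr2 is flanked by loxP sites and no Cre is named for these samples. They were exposed for 5 days to MMK-1, a synthetic peptide agonist of the receptor FPR2, or to the vehicle alone. DMSO at 0.1% is given for both groups. The dose was 1 μmol/L in the protocol, whereas the treatment label reads 1 mM. Each group had 3 libraries, and a sample held pooled organoids of 3 mice, so single animals were not resolved. Whether the libraries of a group came from the same mice is not stated, so the p-values measure only the spread between these samples, which may be technical. Total depth ranged from 35512739 to 37537463 fragments per library. MMK-1 replicate 3 lay apart from the other MMK-1 libraries along the second principal component, which held 4.48% of the variance, while the first component held 92.4% and separated the groups.

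The start regions of the members were inspected for E-boxes, since ATOH1 is a basic helix-loop-helix factor and proteins of this class bind the letters CANNTG. RefSeq windows of 250 bases before an annotated start were found for 6 of the 10 members, and none was found for Tff3, Clca1, Zg16 or Spink4. Muc2, Fcgbp and Agr2 are shown because they are the products with a window and did not all move in the same direction. All 3 lie on the plus strand of GRCm38.p6, at chr7:141690090-141690339, chr7:28070986-28071235 and chr12:35992675-35992924 respectively. Capitals mark each CANNTG, which reads the same on both strands.
Muc2: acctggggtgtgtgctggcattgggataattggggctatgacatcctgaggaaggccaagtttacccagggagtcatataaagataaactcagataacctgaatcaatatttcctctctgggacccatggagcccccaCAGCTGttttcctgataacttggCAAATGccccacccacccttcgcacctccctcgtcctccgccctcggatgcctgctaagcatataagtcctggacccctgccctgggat
Fcgbp: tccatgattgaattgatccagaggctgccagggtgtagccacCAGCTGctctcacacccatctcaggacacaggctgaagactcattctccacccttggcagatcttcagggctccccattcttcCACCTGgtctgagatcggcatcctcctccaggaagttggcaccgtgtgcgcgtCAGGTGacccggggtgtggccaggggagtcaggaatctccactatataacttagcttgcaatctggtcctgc
Agr2: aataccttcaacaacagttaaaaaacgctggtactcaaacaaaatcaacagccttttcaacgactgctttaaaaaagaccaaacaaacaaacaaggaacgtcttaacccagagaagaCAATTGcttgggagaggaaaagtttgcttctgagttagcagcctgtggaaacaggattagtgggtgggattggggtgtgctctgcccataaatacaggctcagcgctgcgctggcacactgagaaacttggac

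The Muc2 window held 2 matches, starting 112 and 89 bases before the gene start, the Fcgbp window 3 matches, at 208, 125 and 72 bases, and the Agr2 window 1 match, at 133 bases. Of all 32851 windows of this length, 66.2% held CANNTG. The match at 112 bases in Muc2 and that at 208 bases in Fcgbp had the letters CAGCTG, a subset of CANNTG that occurred in 13.0% of windows. The windows of Spdef and Atoh1 held no CANNTG, and each of the 2 Gfi1 windows held 1. The Spdef window (chr17:27728952-27729201, minus strand) and 1 of the Gfi1 windows (chr5:107724344-107724593, minus strand) lie inside the spans of these genes, before internal starts. The Muc2 window also contained AGATAA, searched on both strands as the core of GATA factor sites, at 169 and 159 bases before the start, and 9.99% of windows held these letters. A match describes the letters only, and the absence of one says nothing about a factor.

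Among the goblet cell products, Zg16 and Muc2 were lower with MMK-1, whereas Tff3 and Fcgbp were higher under every scaling between libraries that was tried and Spink4, Agr2 and Clca1 were higher on the deposited scale with calls that depended on the scaling. The change of Zg16 was a 3.12-fold decrease, while the other products differed from control by 14.8% to 30.5% of the control mean. Of the 2 transcription factors tested, both Spdef and Atoh1 were higher. In total 7 members rose and 2 fell when calls were made at 0.05 on the adjusted p (limma, Benjamini-Hochberg over all tested genes), against a background of 48.5% of all tested genes called higher and 24.7% called lower. Of all tested genes, 5118 were higher and 2606 lower, a split that was 4045 and 3589 under upper-quartile scaling. Most tested genes were called in 1 direction or the other, so nothing particular to these genes is read from the count. Because these are bulk samples, fewer cells of a type and less RNA per cell cannot be told apart in any of the values.

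On the deposited scale the median gene lay above 0. The median log2 fold change of all tested genes was 0.13, with quartiles of -0.14 and 0.41, and scaling by the upper quartile or by the median of ratios brought this median to 0.03 and -0.003. Fold changes are given on the log2(FPKM + 1) scale, which understates changes of genes with low values. Members are therefore also placed by the share of tested genes with a smaller fold change and by their distance from the median gene. When a fold change of 2 was required together with an unadjusted p of 0.05 or less, Zg16 was the 1 member called, and it was lower (3.39% of tested genes were called higher and 3.65% lower by this rule).

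**Figure D1:**
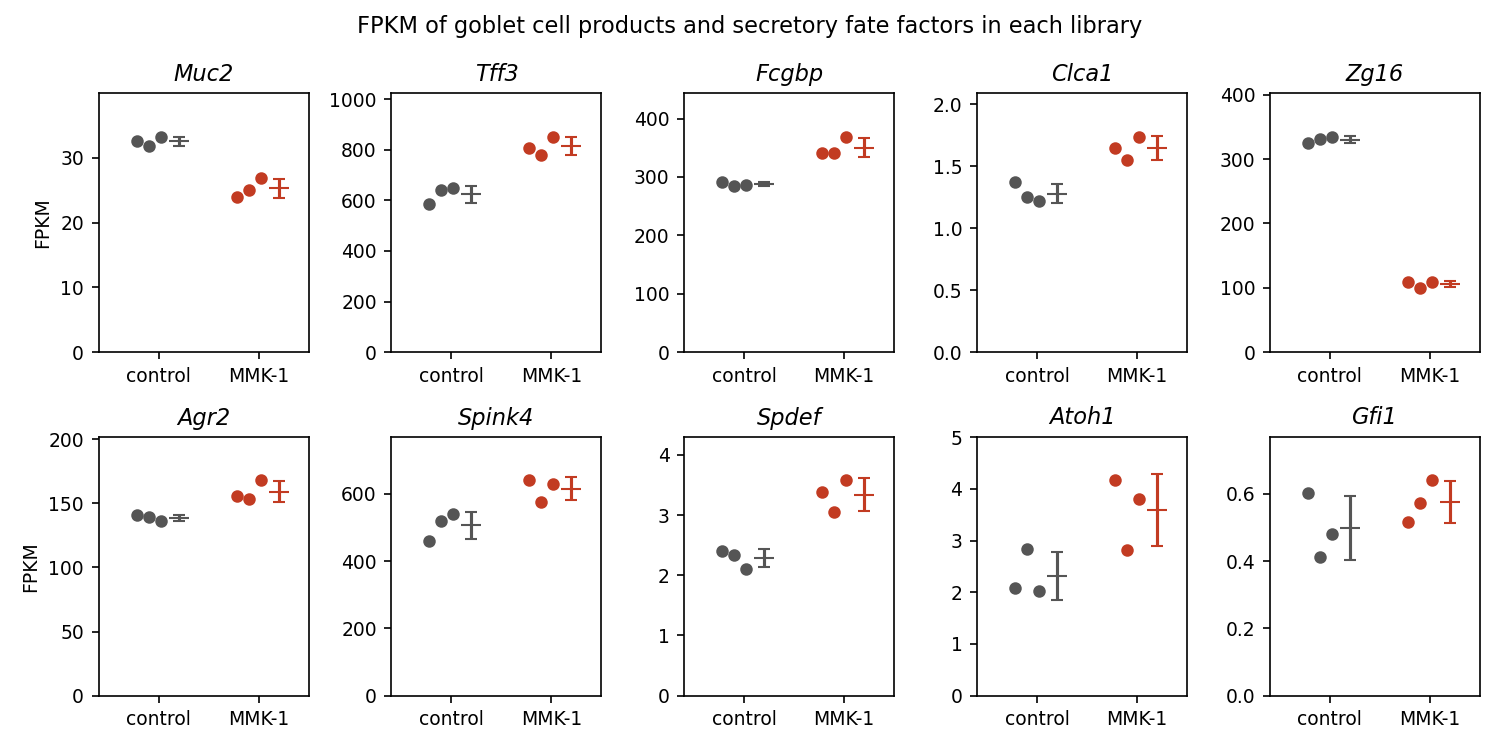
FPKM of each member in the 3 control (grey) and 3 MMK-1 (red) libraries, with the mean and SD beside the points and every axis starting at 0. Zg16 falls from 325 to 335 FPKM in controls to 100.1 to 109 FPKM, Muc2 is lower in all MMK-1 libraries, 6 members are higher without overlap (50.5% of all tested genes), and Atoh1 and Gfi1 overlap between the groups.

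Muc2 encodes the gel-forming mucin that builds the intestinal mucus layer. It spans chr7:141690340-141754691 on the plus strand. Its FPKM was 32.6, 31.9 and 33.3 in control replicates 1 to 3 and 24.0, 25.1 and 26.9 in MMK-1 replicates 1 to 3. The groups did not overlap, and the lowest control value lay above the highest MMK-1 value. The mean fell from 32.6 ± 0.693 to 25.3 ± 1.48 FPKM (SD, n = 3), a decrease of 22.3% in the mean (log2 fold change -0.35, SE 0.0498, adjusted p = 2.22e-04 in limma). Relative to the median gene its log2 fold change was -0.49, and 14.3% of tested genes had a lower fold change. For the exact two-sided permutation test, p was 0.1, the smallest value that 3 against 3 libraries allow.

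The gene length implied by the FPKM steps of Muc2 was 13914 bases, whereas its GENCODE exons on GRCm38 cover 7127 bases. Its FPKM level is set against this length, so its rank of 1959 among all genes in the controls rests on the length as well as on its 16684 to 17335 fragments. The ratio between the groups does not depend on it.

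Zg16 encodes a lectin-like protein of the mucus layer that binds Gram-positive bacteria. It lies at chr7:127050156-127052675 on the minus strand. Its FPKM was 325, 331 and 335 in the controls and 109, 100.1 and 109 with MMK-1. All MMK-1 libraries were far below all control libraries, and the spread within each group was small beside this gap. The mean fell from 330.4 ± 5.45 to 106 ± 5.13 FPKM (SD, n = 3; log2 fold change -1.63, SE 0.0445, adjusted p = 1.45e-08 in limma). The gene lay at -1.77 relative to the median gene, and 1.11% of tested genes had a lower fold change. Zg16 held rank 207 of all genes in the controls, below Tff3 and Spink4 among the members. Its implied length was 682 bases, whereas its GENCODE exons cover 1257 bases, so this rank rests on the length too.

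Tff3 encodes a trefoil peptide that is co-secreted with MUC2 and takes part in epithelial repair. It lies at chr17:31125306-31129611 on the minus strand. Its FPKM was 584, 639.7 and 648 in the controls and 808, 781 and 852 with MMK-1. Every MMK-1 library exceeded every control library. The mean rose from 624 ± 34.8 to 814 ± 36.0 FPKM (SD, n = 3; log2 fold change 0.38, SE 0.0528, adjusted p = 1.92e-04 in limma), and 73.2% of tested genes had a lower fold change. Tff3 was the most abundant member per length in both groups.

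Fcgbp encodes a large mucus protein with repeated von Willebrand factor D domains that associates with MUC2. It lies at chr7:28071236-28120864 on the plus strand. Its FPKM was 292, 285 and 287 in the controls and 341, 341 and 369 with MMK-1. The groups did not overlap, and MMK-1 replicate 3 was the highest library. The log2 fold change was 0.28 (SE 0.043, adjusted p = 3.75e-04 in limma), with 64.2% of tested genes lower. With 84945 to 108778 fragments it had the most fragments of the set.

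Spink4 encodes a Kazal-type protease inhibitor peptide of goblet cells. It lies at chr4:40920056-40931395 on the plus strand. Its FPKM was 461, 518 and 540.4 in the controls and 641, 576 and 630.1 with MMK-1. The lowest MMK-1 value lay just above the highest control value. Its log2 fold change was 0.28 (SE 0.0662, adjusted p = 0.00418 in limma), which was no longer called under upper-quartile scaling (0.16, adjusted p = 0.0559 in limma) or median-of-ratios scaling (0.13, adjusted p = 0.13 in limma).

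Agr2 encodes a protein disulfide isomerase of the endoplasmic reticulum that is required for mucin production. It lies at chr12:35992925-36004081 on the plus strand. Its FPKM was 141, 139 and 136 in the controls and 156, 153 and 168 with MMK-1. The groups did not overlap, but the gap was small. The log2 fold change of 0.20 (SE 0.0458, adjusted p = 0.00411 in limma) lay 0.06 above the median gene and lost its call under upper-quartile scaling (0.08, adjusted p = 0.0788 in limma) and median-of-ratios scaling (0.04, adjusted p = 0.347 in limma).

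Clca1 encodes a secreted metalloprotease of the mucus. It lies at chr3:145004537-145032776 on the minus strand. Its FPKM was 1.37, 1.25 and 1.22 in the controls and 1.65, 1.55 and 1.74 with MMK-1. The groups did not overlap, although the gene was by far the least abundant product, at 156 to 220 fragments per library. The log2 fold change of 0.21 (SE 0.0607, adjusted p = 0.0111 in limma) was not called under median-of-ratios scaling (0.12, adjusted p = 0.0816 in limma).

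The transcription factors were expressed at a far lower level per length than the main products. Spdef encodes an ETS factor that drives goblet and Paneth cell maturation and lies at chr17:27714446-27731003 on the minus strand. Its FPKM was 2.41, 2.34 and 2.11 in the controls and 3.39, 3.05 and 3.58 with MMK-1. No value overlapped. The mean rose from 2.29 ± 0.16 to 3.34 ± 0.27 FPKM (SD, n = 3; log2 fold change 0.40, SE 0.0666, adjusted p = 6.0e-04 in limma), and the gene lay 0.27 above the median gene.

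Atoh1, which is required for all secretory lineages, is a gene of 1 exon at chr6:64729125-64731245 on the plus strand. Its FPKM was 2.08, 2.84 and 2.02 in the controls and 4.17, 2.81 and 3.80 with MMK-1. Control replicate 2 and MMK-1 replicate 2 had nearly the same value, so the groups overlapped, and the spread within each group was the widest of the tested members (19.8% and 19.6% of the mean). The log2 fold change was 0.47 (SE 0.128, adjusted p = 0.00935 in limma), while the exact two-sided permutation test gave p = 0.2. The limma call was lost when every gene above 0 was included in the fit (adjusted p = 0.0515 in limma), and it rested on 160 to 314 fragments per library.

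Gfi1 encodes a zinc finger repressor that acts downstream of ATOH1 and restrains the enteroendocrine program. It lies at chr5:107716655-107725805 on the minus strand. Its FPKM was 0.602, 0.412 and 0.482 in the controls and 0.517, 0.573 and 0.641 with MMK-1. The groups overlapped, and the counts behind them were 48 to 70 fragments in control libraries and 57 to 74 in MMK-1 libraries. The mean was 0.498 ± 0.096 in controls and 0.577 ± 0.0624 FPKM with MMK-1 (SD, n = 3). In a fit of every gene above 0, the log2 fold change was 0.075 (SE 0.0563, adjusted p = 0.363 in limma), and the exact two-sided permutation test gave p = 0.3. The exons of Gfi1 share 101 bases with the antisense gene A430072P03Rik, and since strand-specific counting is not stated, fragments of this stretch cannot be assigned to 1 of them.

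Without MMK-1 replicate 3, the library that stood apart, 7 members were again called higher and 2 lower, with log2 fold changes of -1.65 for Zg16, -0.40 for Muc2, 0.35 for Tff3, 0.36 for Spdef and 0.43 for Atoh1. Of the 9 tested members, 6 were higher and 2 lower without overlap between the groups, beside 50.5% and 26.3% of all tested genes, or 76.8% in either direction.

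**Figure D2:**
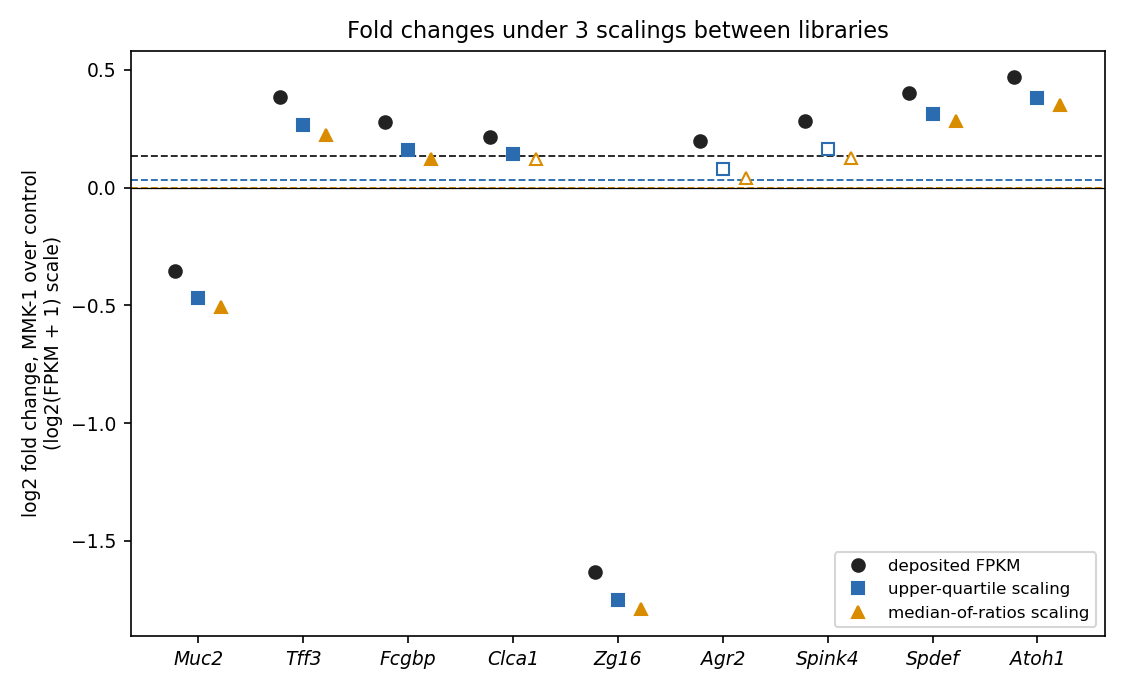
Log2 fold changes (log2(FPKM + 1) scale) of the 9 tested members under the deposited scaling (circles), upper-quartile scaling (squares) and median-of-ratios scaling (triangles), with open symbols for an adjusted p above 0.05 and dashed lines at the median of all genes under each scaling. Zg16 and Muc2 are lower under all 3 scalings, Tff3, Fcgbp, Spdef and Atoh1 are higher and called under all 3, Spink4 and Agr2 lose the call under both alternatives, and Clca1 loses it under median-of-ratios scaling.

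Under upper-quartile scaling 5 members were called higher and 2 lower, where 38.3% of all tested genes were called higher and 34.0% lower. Under median-of-ratios scaling 4 members were called higher and 2 lower, where 34.9% of all tested genes were called higher and 37.1% lower. The direction of each tested member was the same under the 3 scalings. The falls of Zg16 and Muc2 were larger under the alternatives, at -1.75 and -1.79 for Zg16 and -0.47 and -0.51 for Muc2.

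On the deposited scale the 7 products summed to 1836, 1946 and 1982 FPKM in controls and to 2081, 1977 and 2158 FPKM with MMK-1, and control replicate 3 and MMK-1 replicate 2 overlapped. The composition of this total was compared within each library, where the scaling between libraries cancels. The shares rest on the implied gene lengths as well as on fragments. Zg16 made up 17.7%, 17.0% and 16.9% of the product total in controls and 5.25%, 5.06% and 5.04% with MMK-1. The share of Tff3 was 31.8% to 32.9% in controls and 38.8% to 39.5% with MMK-1. These are shares of 1 total, so the lower share of Zg16 raises the others. Without Zg16 the products summed to 1511 to 1646 FPKM in controls and 1877 to 2049 with MMK-1 on the deposited scale. Muc2 took 1.64% to 1.78% of the total in controls and 1.15% to 1.27% with MMK-1.

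Set against Tff3 in the same library, Zg16 stood at 55.6, 51.7 and 51.8 FPKM per 100 FPKM of Tff3 in controls and at 13.5, 12.8 and 12.8 with MMK-1. Muc2 stood at 5.58, 4.99 and 5.14 in controls and at 2.97, 3.21 and 3.16 with MMK-1. Both ratios separated the groups without overlap (exact two-sided permutation p = 0.1, the smallest possible). Smaller decreases relative to Tff3 that also separated the groups were those of Fcgbp, from 50.0, 44.6 and 44.4 to 42.1, 43.6 and 43.3, and of Agr2, from 24.1, 21.7 and 21.0 to 19.2, 19.5 and 19.8 (exact two-sided permutation p = 0.1 for each). The ratios of Spink4 and Clca1 to Tff3 overlapped between the groups, as did those of Spdef, Atoh1 and Gfi1. Zg16 also fell relative to Muc2, from 9.96, 10.4 and 10.1 FPKM per FPKM of Muc2 in controls to 4.55, 3.99 and 4.04. The 2 mucus components that were lower thus differed in the size of their change.

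**Figure D3:**
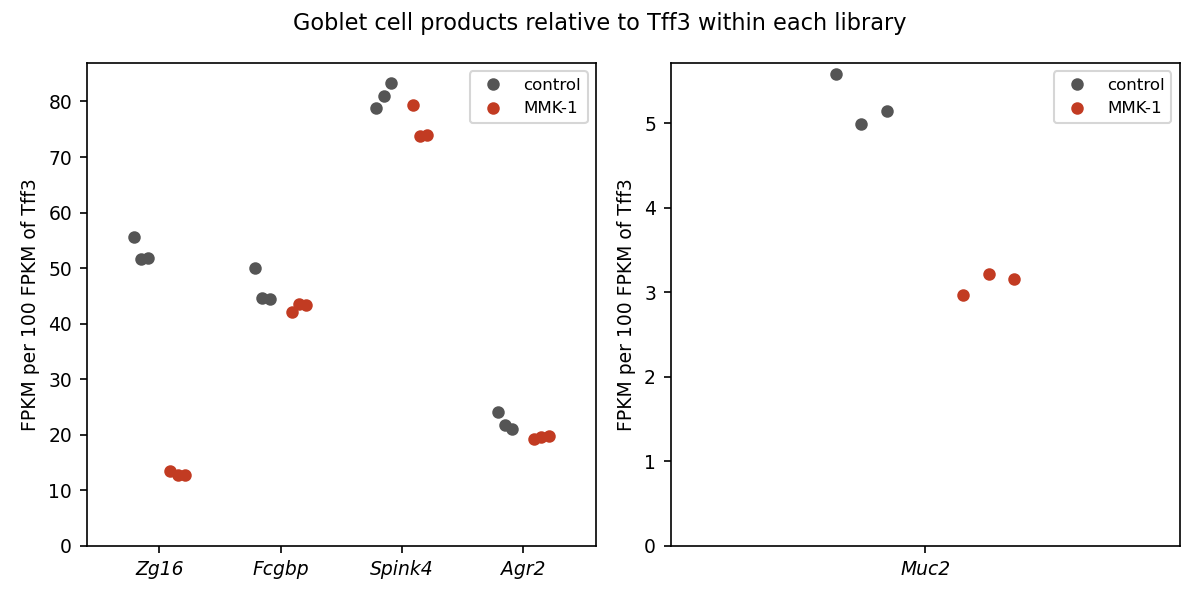
FPKM of Zg16, Fcgbp, Spink4 and Agr2 (left) and Muc2 (right) per 100 FPKM of Tff3 in the same library, for 3 control (grey) and 3 MMK-1 (red) libraries. Zg16 drops from 51.7 to 55.6 in controls to 12.8 to 13.5 with MMK-1 and Muc2 from 4.99 to 5.58 to 2.97 to 3.21, while Spink4 overlaps between the groups.

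Spdef and Atoh1 were also set against Muc2 in the same library. Spdef per FPKM of Muc2 was 0.074, 0.0732 and 0.0632 in controls and 0.141, 0.122 and 0.133 with MMK-1. Atoh1 per FPKM of Muc2 was 0.0637, 0.0889 and 0.0605 in controls and 0.174, 0.112 and 0.141 with MMK-1. Neither ratio overlapped between the groups (exact two-sided permutation p = 0.1 for each), although the FPKM of Atoh1 itself did. Muc2 was lower in every MMK-1 library, which raises both ratios whatever the numerator does. Against Tff3 the ratios of Spdef and Atoh1 overlapped (exact two-sided permutation p = 0.2 for each). The separation against Muc2 is therefore not read as a result about Spdef or Atoh1.

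Further goblet cell genes included higher, lower and uncalled genes. Of 40 listed genes, Retnlb was not analysed here and 27 of the other 39 were tested. Of the 27, 10 were higher (37.0%, against 48.5% of all tested genes), 8 were lower (29.6%, against 24.7%) and 9 were not called, with a median log2 fold change of -0.03 beside 0.13 for all genes. The 10 include Agr3, which passed the limit for testing only through the MMK-1 libraries. The split moved to 8 higher and 12 lower under upper-quartile scaling and to 8 higher and 13 lower under median-of-ratios scaling. The summed level of the 39 genes was 1174 to 1187 FPKM in controls and 734 to 771 FPKM with MMK-1. The decrease of this sum lay in Muc13, Guca2a and Scin, picked out after their values were seen, which together had 876 to 886 FPKM in controls and 419.6 to 459 FPKM with MMK-1, while the other 36 genes summed to 297 to 301 and 312 to 314 FPKM.

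Among the tested genes, the 3 largest decreases on the log2(FPKM + 1) scale were those of Scin, Guca2a and Muc3. By the plain ratio of means, Bcas1 fell slightly more than Muc3. Scin, an actin-severing protein, fell from 156 ± 0.625 to 33.5 ± 3.26 FPKM (SD, n = 3; log2 fold change -2.19, SE 0.063, adjusted p = 1.95e-08 in limma). Guca2a, the precursor of the peptide guanylin, had 403, 405 and 416 FPKM in controls and 182, 188 and 197 with MMK-1 (log2 fold change -1.11, SE 0.0412, adjusted p = 7.7e-08 in limma). Guanylin and the membrane mucins are also made by enterocytes, so these genes do not mark goblet cells alone. Muc3, a membrane mucin, had a log2 fold change of -0.99 (SE 0.0409, adjusted p = 1.37e-07 in limma). A separate entry outside this list, Muc3a, went the other way, from 1.79 to 2.55 FPKM (log2 fold change 0.35, adjusted p = 3.99e-04 in limma). Bcas1 fell from 3.86 to 1.82 FPKM and Capn9, a digestive tract calpain, from 1.67 to 1.03 FPKM (log2 fold changes -0.79 and -0.40, adjusted p = 7.11e-06 and 8.77e-04 in limma).

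The 3 largest increases were those of Klk1, Agr3 and Qsox1. Klk1, a tissue kallikrein, had 3.18, 2.61 and 2.18 FPKM in controls and 10.7, 9.65 and 11.6 with MMK-1 (log2 fold change 1.68, SE 0.101, adjusted p = 1.22e-06 in limma). Agr3, the neighbor and paralog of Agr2, had 0.55, 0.439 and 0.193 FPKM in controls and 2.03, 2.32 and 2.94 with MMK-1 (log2 fold change 1.30), far below Agr2. It passed the limit for testing only through the MMK-1 libraries, so its place here was set in part by the filter and no test is given. Qsox1, a sulfhydryl oxidase of the secretory pathway, had 9.15 ± 0.0873 FPKM in controls and was higher in every MMK-1 library (log2 fold change 1.24, SE 0.0452, adjusted p = 7.04e-08 in limma). Galnt12, which starts mucin-type O-glycosylation, rose from 5.45 to 9.29 FPKM (log2 fold change 0.67, adjusted p = 1.39e-05 in limma).

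Ern2, the IRE1-beta sensor of goblet cells, had 3.94 ± 0.404 FPKM in controls and 3.87 ± 0.405 with MMK-1 (SD, n = 3; log2 fold change -0.02, adjusted p = 0.828 in limma). Rep15, a goblet cell secretion protein, had 2.09, 2.09 and 3.65 FPKM in controls and 1.95, 1.79 and 1.67 with MMK-1 (adjusted p = 0.0635 in limma), and was called lower under both other scalings (adjusted p = 0.0423 and 0.0345 in limma). The other trefoil peptides were nearly absent beside Tff3. For Tff1 the control libraries held 17, 26 and 4 fragments and the MMK-1 libraries 0, 1 and 6, and Tff2 had 0 in every control library and at most 1 in an MMK-1 library.

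**Figure D4:**
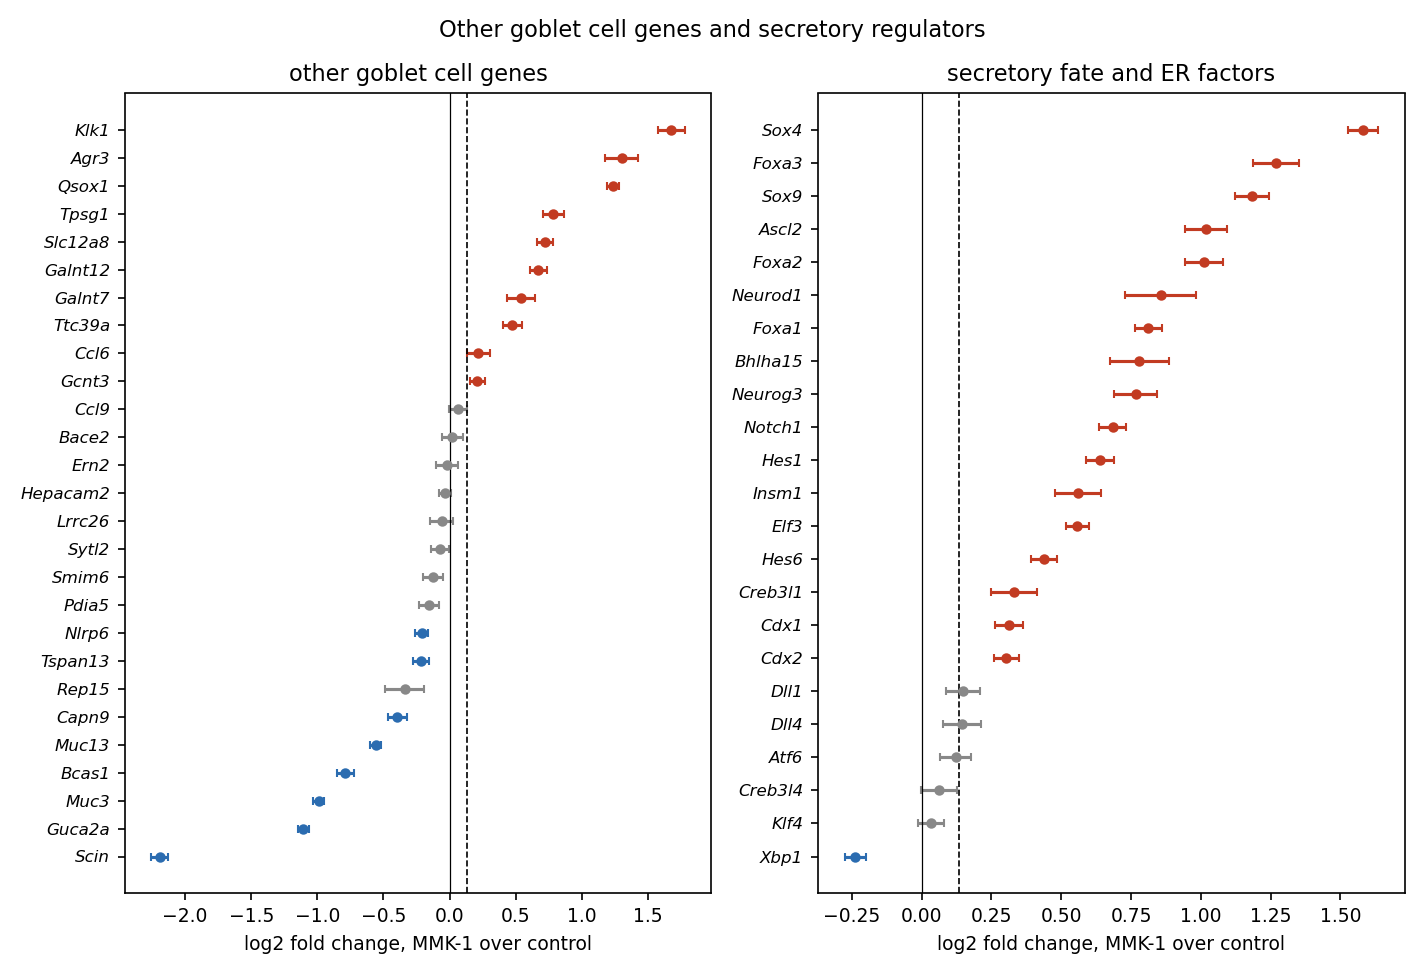
Log2 fold changes (MMK-1 over control, log2(FPKM + 1) scale) with standard errors for the 27 tested goblet cell genes outside the member set (left) and the 23 tested secretory fate and ER factors (right). Agr3 (left) passed the limit for testing only through the MMK-1 libraries. Red marks genes called higher, blue called lower and grey not called at an adjusted p of 0.05 under the deposited scaling, and the dashed line is the median of all genes, 0.13; goblet cell genes spread on both sides from -2.19 to 1.68, while 17 of the 23 factors were called higher and 1 lower (16 and 2 under median-of-ratios scaling).

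Among secretory fate and endoplasmic reticulum factors, 23 of 27 listed genes were tested. Of these, 17 were higher (73.9%, against 48.5% of all tested genes), 1 was lower (4.35%, against 24.7%) and 5 were not called, with a median log2 fold change of 0.56. This list includes factors of several lineages, and Neurod1, Pou2f3 and Ascl2 are also counted below as markers of other cell types. On the log2(FPKM + 1) scale the 3 largest increases were those of Sox4, Foxa3 and Sox9. By the plain ratio of means, Foxa2 and Ascl2 rose more than Foxa3 and Sox9. Sox4, a factor of secretory progenitors and tuft cells, rose from 10.5 ± 0.425 to 33.4 ± 1.88 FPKM (SD, n = 3; log2 fold change 1.58, SE 0.0536, adjusted p = 4.93e-08 in limma). Foxa3, a forkhead factor of the secretory lineage, had 3.56, 4.78 and 4.25 FPKM in controls and 11.2, 11.3 and 11.9 with MMK-1 (log2 fold change 1.27, SE 0.0818, adjusted p = 1.82e-06 in limma). Sox9, a factor of crypt base and Paneth cells, rose from 4.59 to 11.7 FPKM (log2 fold change 1.18, SE 0.0612, adjusted p = 5.02e-07 in limma).

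Genes of the Notch pathway, which opposes Atoh1, were read from the same list. Hes1, the Notch target that represses Atoh1, had 29.1, 29.2 and 28.3 FPKM in controls and 47.4, 46.9 and 42.4 with MMK-1 (log2 fold change 0.64, SE 0.0506, adjusted p = 6.36e-06 in limma). Notch1, a receptor of the pathway that was named after its values were seen, rose from 4.08 to 7.16 FPKM (log2 fold change 0.68, SE 0.0474, adjusted p = 2.84e-06 in limma). Dll1 and Dll4, the Notch ligands of secretory progenitors, were not called, with log2 fold changes of 0.15 and 0.15 (adjusted p = 0.0538 and 0.0786 in limma). Neurog3, which commits progenitors to the enteroendocrine fate, rose from 2.05 to 4.18 FPKM (log2 fold change 0.77, adjusted p = 3.1e-05 in limma).

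Xbp1, which expands the endoplasmic reticulum, was the 1 factor called lower, at 135, 137 and 137 FPKM in controls and 114, 113 and 120 with MMK-1 (log2 fold change -0.24, SE 0.0387, adjusted p = 5.33e-04 in limma). Creb3l1, a membrane-bound factor of secretory cells, rose from 3.56 to 4.73 FPKM (log2 fold change 0.33, adjusted p = 0.00595 in limma), a call that was lost under median-of-ratios scaling (adjusted p = 0.0572 in limma). Creb3l4 had a log2 fold change of 0.06 that was -0.03 under median-of-ratios scaling and was not called under either. Klf4, a factor of goblet cell terminal differentiation, had 7.76 and 7.97 FPKM, and its log2 fold change, 0.03 with an adjusted p of 0.54 in limma, became -0.11 and a lower call under median-of-ratios scaling (adjusted p = 0.044 in limma). The fifth gene without a call, Atf6, is named here after its values were seen. Gfi1b, the paralog of Gfi1 found in tuft cells, had at most 2 fragments per library.

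Markers of other epithelial cell types also differed between the groups. The counts of calls in these lists stand beside 48.5% of all tested genes called higher and 24.7% called lower. All 9 tested Paneth cell markers were higher, with a median log2 fold change of 1.54, and the summed level of the 11 listed in the table was 469.6 to 523 FPKM in controls and 1459 to 1602 with MMK-1. Of 13 enterocyte markers, 11 were lower under all 3 scalings and 1 was higher on the deposited scale only, with a sum of 14846 to 15010.3 FPKM in controls and 10394 to 11195 with MMK-1. Of 11 tested enteroendocrine markers, 8 were higher and 0 lower on the deposited scale and 7 higher and 1 lower under median-of-ratios scaling, with sums of 398 to 415 and 540.2 to 555 FPKM. All 7 stem cell markers were higher (71.8 to 73.9 and 403 to 429.8 FPKM), as were all 6 proliferation genes.

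No tuft cell marker reached the limit for testing, and their sum was 2.1 to 2.41 FPKM in controls and 2.49 to 2.96 with MMK-1. Immune markers summed to 3.05 to 3.76 FPKM in controls and 0.955 to 1.82 with MMK-1, and mesenchymal markers to 1.17 to 1.2 and 0.335 to 0.439 FPKM. Cd68 held most of the immune sum, at means of 3.17 FPKM in controls and 1.15 with MMK-1. Pdgfrb held most of the mesenchymal sum, at means of 1.1 and 0.265 FPKM. The remaining markers of both lists had low values and did not all move in the same direction. These sums are therefore not read as a change of immune or mesenchymal cells. No listed tuft, immune or mesenchymal marker was at 0 in every library. Of 5 pan-epithelial genes, 2 were higher and 2 lower on the deposited scale, and 1 was higher and 3 lower under both other scalings. Epcam, named after its values were seen, had 392 and 391 FPKM on the deposited scale and was called lower under the others (adjusted p = 0.0125 and 0.00335 in limma). The part of these shifts in the values of the goblet cell genes was not tested.

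The genes with the pattern most like Muc2 and Atoh1 over the 6 libraries were identified by Pearson's r on log2(FPKM + 1). For Muc2 they were Echs1, Dnajc19 and Plgrkt, with r of 0.9994, 0.9991 and 0.9989, and 1513 of 10550 genes had r above 0.95. For Atoh1 they were Rab26os, Amotl2 and Orai1, with r of 0.9878, 0.9878 and 0.9839, and 26 genes had r above 0.95. These values describe 6 libraries that fall into 2 groups and share their scaling, and many genes that differ between the groups reach a high r with any other such gene.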

How the data were processed

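RNA was sequenced from 6 libraries of mouse small intestinal organoids, 3 for control and 3 for MMK-1, grouped by their titles. The authors deposited FPKM per gene for each library. The submitters' processing notes list HISAT2, HTSeq, DESeq2, R 3.2.0 and mm10 without role or order. A scaling between libraries beyond the library total is not given in the sources used here.

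FPKM values were whole multiples of a step for each gene, from which fragments and gene lengths were computed (100.0% of values whole within 0.05 fragments). Whole values alone do not fix the step: for 571 genes with few fragments the length had to be multiplied, and on simulated data the procedure recovered most but not all genes. Fragments on listed genes made up 99.72% to 99.74% of the total. A number of fragments carries its counting error only.

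Groups were compared with limma 3.58.1 (R 4.3.3) and a trend on log2(FPKM + 1), on genes whose mean FPKM reached 1, with Benjamini-Hochberg adjustment over all 10551 genes, and this test was checked on simulated data. The simulation changed only a small share of genes, whereas most tested genes were called here. It therefore does not bear on the calls that depend on the scaling. Single values were compared by exact two-sided permutation. Other steps ran in Python 3.11.15 (scipy 1.17.1, pandas 2.3.3, numpy 2.4.6, matplotlib 3.10.9). Gene positions and start windows came from RefSeq on GRCm38.p6, and exon lengths from GENCODE on GRCm38. Alternatives covered 2 scalings, the filter, the pseudocount, a replicate block, limma-voom on fragments, GC content (matched for 98.6% of genes) and leaving out each library.

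The members and lists were chosen with earlier results of these data known. Named were all members, the 3 largest called changes in each direction of both further lists, a set of genes fixed by name whatever their values, and the 3 genes most like Muc2 and Atoh1.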

Additional observations from a re-analysis of the deposited data

How the results depend on the processing

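The scaling between libraries limits the small increases most. Under median-of-ratios scaling 3916 genes were lower in place of 2606, 4 members were higher in place of 7, 13 other goblet cell genes were lower in place of 8, and 2 secretory factors were lower in place of 1. The log2 fold change of Clca1 was 0.12 (adjusted p = 0.0816 in limma), that of Agr2 0.039 and that of Spink4 0.13 under this scaling, and Agr2 had 0.078 and Spink4 0.16 under upper-quartile scaling. Both scalings lower the median of all genes. Atoh1 kept a log2 fold change of 0.47 with every gene above 0 but missed the threshold (adjusted p = 0.0515 in limma), and the cause was not tested. Gfi1 had 0.19 with a pseudocount of 0.1. The rule of a fold change of at least 2 with an unadjusted p, which changes both limits, left 358 genes higher and 385 lower. Over the 14 alternatives, 131 of 138 member values kept their direction and side of the threshold, and no direction changed. For Gfi1, untested, a value counted as kept if it moved by less than 1 SD. In the fits that included Gfi1, its value counted as kept if it stayed positive without a call.

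When each library was left out in turn, 4702 to 5186 genes were higher and 2365 to 2947 lower, and the members called were 7 higher and 2 lower each time. Atoh1 lay between 0.38 and 0.60, Muc2 between -0.40 and -0.32, and Zg16 between -1.65 and -1.59. Same-numbered libraries did not deviate together (correlations of 0.025, -0.04 and 0.028), so no sign of pairing by number was seen. With 3 libraries a group this comparison cannot show that the samples were unpaired. With a replicate block 5024 genes were higher and 2543 lower, and 7 members were higher and 2 lower. With 3 libraries a group and organoids of several mice in each, variation between mice was not measured.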

Other observations

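Relatives of the members by symbol, such as other mucins, trefoil peptides, Clca proteins, Spink inhibitors and ETS factors, numbered 32 genes in the table, of which 14 were tested and 8 were higher, 5 lower and 1 not called under the deposited scaling (limma, adjusted p of at most 0.05; 48.5% of all tested genes were higher and 24.7% lower). The 8 include Agr3, which passed the limit for testing only through the MMK-1 libraries. The examples given here were chosen after their values were seen. In the Clca family, whose mouse genes lie side by side and are similar in sequence, so that fragments can be split between them, Clca3b had 22.8, 22.3 and 23.2 FPKM in controls and 103, 102 and 111 with MMK-1 (log2 fold change 2.16, SE 0.045, adjusted p = 3.84e-09 in limma). Clca4b moved the other way, from 599, 575 and 557 FPKM in controls to 239, 229 and 228 (log2 fold change -1.31, SE 0.0423, adjusted p = 3.63e-08 in limma). Both were far more abundant per length than Clca1 in every library.

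Spink1, a trypsin inhibitor and relative of Spink4, had 213, 246 and 291 FPKM in controls and 68.9, 65.9 and 70.1 with MMK-1 (log2 fold change -1.85, SE 0.0964, adjusted p = 5.31e-07 in limma), whereas Spink4 was higher under the deposited scaling and not called under the other scalings. The membrane mucin Muc13 fell from 316 to 214 FPKM (log2 fold change -0.56, SE 0.0415, adjusted p = 4.28e-06 in limma), and Muc4, which lay under the limit for testing, had 0.307, 0.359 and 0.357 FPKM in controls and 1.19, 1.06 and 1.38 with MMK-1. The gel-forming mucins of the stomach and airways were listed at 0 (Muc5ac and Muc6) or with 1 fragment in 1 library (Muc5b).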
